A study of Mus musculus with 6 samples.

Results

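The genes described here encode the subunits of respiratory complexes II, III and IV and of ATP synthase (complex V) that are made in the nucleus. Members were chosen by symbol alone, as the rows of the table named Sdha to Sdhd, Cyc1, or beginning with Uqcr, Cox4 to Cox8 or Atp5. This gave 46 of 16060 rows, with 4 genes of complex II, 9 of complex III, 16 of complex IV and 17 of complex V. No measured value entered the rule, but it was set with earlier results of these data known. By annotation, 2 of the 17 genes counted under complex V, Atp5s and Atp5sl, are not subunits of the enzyme. They were kept as the symbol rule set them. Cox4i1, the common isoform of subunit IV, and the subunits encoded by mitochondrial DNA were not analysed here. The samples were hippocampus (HIPP) of C57BL/6 mice, 3 libraries labelled Control from mice given saline and 3 labelled MA from mice given methamphetamine (MA). According to the study's methods, the mice were adult males injected intraperitoneally, with the MA dose raised each week over a course of weeks, and no transgene or deletion is named. Neither the labels nor the methods state whether tissue of several mice was pooled in a library, so p-values measure the spread between these libraries only. The study modelled MA-induced anxiety and asked in part about mitochondria, so the comparison of interest was MA against Control, complex by complex.

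Complex II (succinate dehydrogenase) oxidizes succinate in the citric acid cycle and passes the electrons to ubiquinone. Complex III moves them from ubiquinol to cytochrome c, complex IV (cytochrome c oxidase) passes them to oxygen, and ATP synthase uses the proton gradient built by the chain to make ATP. Neurons take most of their ATP from this route. Complex II is encoded wholly in the nucleus, whereas complexes III, IV and V also hold subunits made from mitochondrial DNA. Several complex IV subunits have a common isoform and a second isoform known from muscle, lung or testis.

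The values are gene levels on a log2 scale, read as log2(RPKM + 1), so a difference of 1 is a doubling away from the lowest levels, and the change of a low gene is understated. The median level of the 13321 genes tested lay between 3.26 and 3.27 in the 6 libraries. The depth of each library is unknown, because the values carry no read totals. The library labelled MA 3 stood apart, with a limma sample quality weight of 0.194 against 0.937 to 2.45 for the other 5 libraries, so results are also given without it. Neuron markers were present in each library (summed level 11.50 to 11.63 in Control and 11.27 to 11.77 in MA, with MA 3 the lowest), and astrocyte markers summed to 9.90 to 10.01 and 9.70 to 10.15. Markers of other tissue moved with the groups or with some libraries. All 7 choroid plexus markers were higher in MA at an unadjusted p under 0.05 (limma), 4 of them at an adjusted p under 0.05, and their summed level was 6.06 to 8.72 in Control and 10.80 to 12.31 in MA. For 5 of 5 blood markers the unadjusted p was also under 0.05, 3 were called at the adjusted threshold, and the sums were 10.64 to 10.98 and 11.70 to 12.10. All 6 thalamus markers were higher in MA by point estimate (median 0.49, 1 with an unadjusted p under 0.05, 0 called), with summed levels of 4.80, 4.37 and 4.70 in Control 1, 2 and 3, 5.80 and 6.25 in MA 1 and MA 2 and 4.35 in MA 3. No choroid plexus, blood or thalamus marker was listed at 0. In bulk tissue, fewer cells of a type and less RNA per cell cannot be told apart.

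All 46 genes passed the filter on low values, and most were among the most abundant transcripts of the tissue. Their median level was 8.13, against 3.25 for the 13321 genes tested, and 38 of the 46 were above 5. By complex the median level was 6.62 for complex II, 8.42 for III, 7.74 for IV and 8.36 for V, and the 4 complex II genes lay between 6.05 and 7.20. Cox6a1, the common isoform of subunit VIa, was the highest at 11.34 (more than 99.94% of tested genes lay below it), followed by Atp5b, the catalytic beta subunit of ATP synthase, at 10.99. The 8 genes at or below 5 were the 6 complex IV isoforms Cox4i2, Cox6a2, Cox6b2, Cox7a1, Cox7b2 and Cox8b together with Atp5s and Atp5sl. Cox7b2, a testis isoform of subunit VIIb, was the lowest at 2.08.

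**Figure D1:**
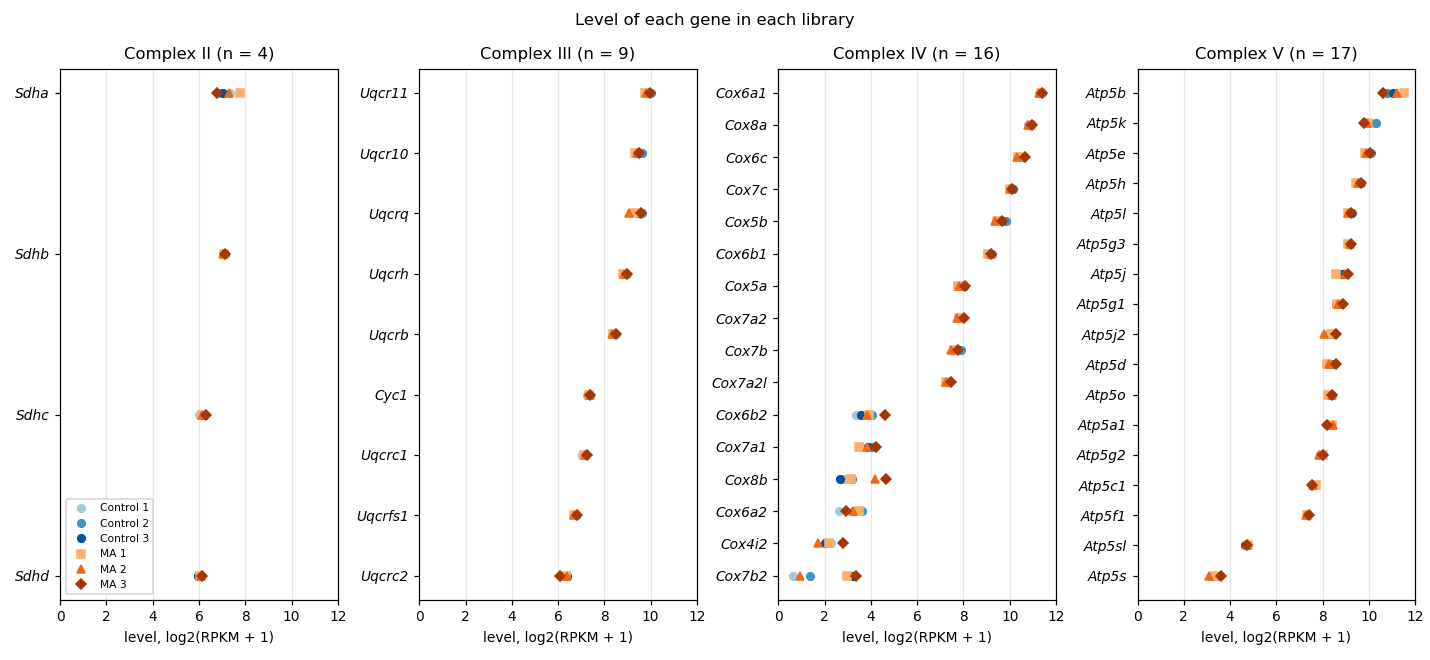
Level of each of the 46 genes in each library, as log2(RPKM + 1) on the horizontal axis, in a panel for each complex with genes ordered by level, where blue circles are the 3 Control libraries and orange marks the 3 MA libraries. For most genes the 6 points lie almost on top of each other, whereas the 6 low complex IV isoforms spread over 0.72 to 2.76 log2 units.

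Respiratory subunit genes are known as targets of NRF1, ETS factors such as GABPA, YY1 and the ERR receptors. Promoter windows of 300 bases, 250 before and 50 after the annotated start, were taken from RefSeq (GRCm38.p6), in which 37 of the 46 genes were matched. The NRF1 core, searched as CGCANGCG on both strands, was in a window of 16 of the 37 (43.2%), against 9.22% of all 27025 genes with a window and 18.9% of 10212 tested genes. The ETS motif CCGGAAGT was in 4 (10.8%, against 8.32% of tested genes), the YY1 motif AAGATGGC in 4 (10.8%, against 5.04%) and the ERR motif AAGGTCA in 5 (13.5%, against 4.04%). These 4 motifs do not contain one another. None of the 4 was found in the windows of the 4 low complex IV isoforms that were matched. The same held for the more abundant complex IV genes Cox5a, Cox5b, Cox6b1, Cox7a2, Cox7a2l, Cox7b and Cox7c. Cox6a1 held the NRF1 core and Cox8a the ETS motif. Stretches of 30 bases with the NRF1 core in capitals are shown for 6 abundant members of complexes II, IV and V, read 5′ to 3′ on the strand of the gene (all 6 on the minus strand) and upstream of the RefSeq start. The likeness of the cores follows from the search. The stretches lie at chr13:74350276-74350305 for Sdha, chr9:50603909-50603938 for Sdhd, chr5:115349056-115349085 for Cox6a1, chr5:108434430-108434459 for Atp5k, chr16:84835105-84835134 for Atp5j and chr15:102671070-102671099 for Atp5g2. In GENCODE M21 the stretches of Sdha, Atp5k and Atp5g2 overlap an exon of the same gene, that of Atp5j overlaps exons of Atp5j and of Gabpa, its neighbour on the opposite strand, that of Sdhd overlaps an exon of its neighbour Timm8b, and that of Cox6a1 overlaps no gene.
Sdha: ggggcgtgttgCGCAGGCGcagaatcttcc
Sdhd: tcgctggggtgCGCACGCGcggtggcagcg
Cox6a1: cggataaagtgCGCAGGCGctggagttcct
Atp5k: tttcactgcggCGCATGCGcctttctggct
Atp5j: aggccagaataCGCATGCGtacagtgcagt
Atp5g2: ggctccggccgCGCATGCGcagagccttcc
The first base of the core was 54, 78, 116, 49, 147 and 41 bases before the start in the same order. The 250 bases before the start of Cox8b, the gene with the largest difference between the groups, are also shown. They have no capitals because 0 of the motifs above was found in them. They lie at chr7:140900447-140900696 on the minus strand and hold 47.2% G and C.
Cox8b: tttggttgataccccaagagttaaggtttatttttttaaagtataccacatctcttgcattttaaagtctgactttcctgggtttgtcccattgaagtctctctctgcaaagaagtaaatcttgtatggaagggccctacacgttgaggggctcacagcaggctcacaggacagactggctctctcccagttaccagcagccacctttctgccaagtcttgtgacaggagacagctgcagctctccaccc
Cox8b was also the 1 matched gene of 37 (2.7%) with TATAAA in its window, searched on the strand of the gene and found within the 50 bases after the start, against 5.28% of tested genes. A match is a description of letters in a window, not evidence of binding.

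In the comparison of MA with Control, none of the 46 genes was called. The limma p-values were adjusted over the 13321 genes by the Benjamini-Hochberg method, and 0 members passed a threshold of 0.05, beside 0.263% of all tested genes, and the smallest adjusted p among members was 0.35. At an unadjusted p under 0.05 (limma), 1 member was higher in MA, Cox8b (2.17% of members, against 4.99% of tested genes), and 2 were lower, Atp5k and Cox5b (4.35%, against 5.46%). The 3 MA values lay above the 3 Control values for 0 members (against 7.32% of tested genes) and below them for 2, Atp5k and Cox5b (4.35%, against 10.2%). These shares were below those of all tested genes in each direction. The point estimates were divided evenly, 23 higher and 23 lower, with a median of 0.0027, against -0.010 over all tested genes. By complex the median log2 fold change was 0.069 for II, -0.046 for III, 0.0027 for IV and 0.0087 for V. The 95% confidence interval lay within 1 log2 unit of 0 on both sides for 43 of the 46 genes and within 0.5 for 38. With a library left out in turn, members at an unadjusted p under 0.05 numbered 1 without Control 1 (against 6.22% of tested genes), 2 without Control 2 (6.84%), Control 3 (7.59%) or MA 1 (8.69%), 1 without MA 2 (7.74%) and 9, or 19.6%, without MA 3 (23.3%). Members that did not overlap numbered 3 without Control 1 (against 23.6% of tested genes), 6 without Control 2 (25.4%) or Control 3 (25.4%), 7 without MA 1 (25.6%), 4 without MA 2 (24.7%) and 17, or 37.0%, without MA 3 (42.9%). The share of members was below that of all tested genes in each of these 6 fits and for both counts.

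**Figure D2:**
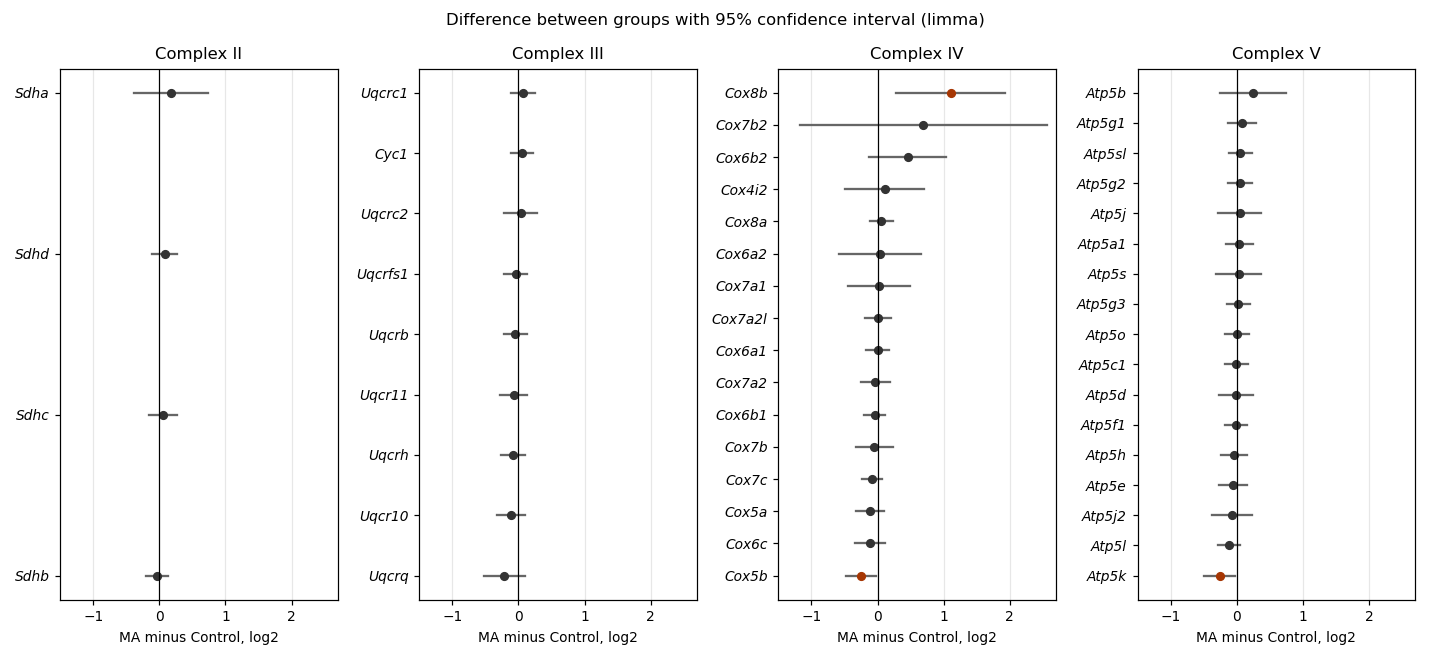
Difference between groups (MA minus Control, log2) of each gene with its 95% confidence interval from limma, in a panel for each complex. Red points are the 3 genes with an unadjusted p under 0.05, Cox8b at 1.11, Cox5b at -0.25 and Atp5k at -0.26. All other intervals cross 0, most of them within a narrow range. Those of the low complex IV isoforms are wide, as are those of Sdha (-0.38 to 0.74) and Atp5b (-0.25 to 0.74).

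Complex II showed no called difference. Sdha, the flavoprotein that binds succinate, had levels of 7.33, 6.95 and 7.06 in Control 1, 2 and 3 and of 7.79, 7.32 and 6.78 in MA 1, 2 and 3. The groups overlapped, since MA 1 was the highest and MA 3 the lowest of the 6 libraries. Its log2 fold change came to 0.18 (with a standard error, SE, of 0.24 and an adjusted p of 0.86 from limma). Without MA 3 it was 0.44, with an unadjusted p of 0.034 and an adjusted p of 0.18 (limma), and without MA 1 it turned to -0.070. Sdhb, the iron-sulfur subunit that carries electrons on from the flavin, varied little, with 7.09, 7.10 and 7.14 in Control and 7.07, 7.02 and 7.14 in MA. Sdhc and Sdhd anchor the enzyme in the inner membrane and form the ubiquinone site. Sdhc had levels of 6.00, 6.14 and 6.20 in Control and 6.12, 6.12 and 6.28 in MA, and Sdhd had 6.12, 5.98 and 5.94 against 6.05, 6.11 and 6.13. In both genes MA 3 was the highest library and the groups overlapped. The log2 fold changes were -0.033 for Sdhb, 0.058 for Sdhc and 0.079 for Sdhd, each with an SE between 0.070 and 0.089. The complex II median of 0.069 was 0.028 without MA 1 and 0.033 without MA 3.

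Complex III had 6 of 9 genes lower and 3 higher in MA by point estimate, none with an unadjusted p under 0.05 (limma). The 3 with the smallest p were all small accessory subunits. Uqcrq, a small subunit near the ubiquinone-binding part of the complex, had levels of 9.49, 9.61 and 9.47 in Control and 9.27, 9.07 and 9.59 in MA. MA 1 and MA 2 lay below each Control library and MA 3 lay above 2 of them. Its log2 fold change was -0.21 (SE 0.13, adjusted p = 0.64 from limma), with -0.35 (limma adjusted p = 0.078) without MA 3 and -0.092 without MA 2. Uqcr10 had 9.54, 9.62 and 9.38 against 9.30, 9.39 and 9.51, and Uqcrh, the hinge protein at the cytochrome c1 side, had 8.98, 8.95 and 8.91 against 8.79, 8.83 and 8.97. Again MA 3 was the highest of the MA libraries, and the groups overlapped. The catalytic and core members stayed close to 0. The log2 fold change was 0.052 for Cyc1 (cytochrome c1), -0.039 for Uqcrfs1 (the Rieske iron-sulfur protein), 0.071 for Uqcrc1 and 0.034 for Uqcrc2 (the core proteins) and -0.046 for Uqcrb, the small ubiquinone-binding protein. Uqcr11, the most abundant of the complex at a level of 9.88, had 9.93, 10.01 and 9.83 against 9.78, 9.79 and 9.98. Uqcrc2, the least abundant at 6.26, had 6.20, 6.14 and 6.38 against 6.36, 6.36 and 6.10, where MA 3 was instead the lowest of all libraries.

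In complex IV, 8 genes were higher and 8 lower in MA by point estimate. Cox5b, a zinc-binding subunit on the matrix side, lies on chromosome 1 of GRCm38 from 36691449 to 36693681. Its level was 9.69, 9.86 and 9.68 in Control and 9.47, 9.35 and 9.65 in MA. All MA libraries were below all Control libraries, but MA 3 was only just below the lowest of them. The log2 fold change was -0.25 (SE 0.099, 95% interval -0.48 to -0.018, adjusted p = 0.45 from limma), and the exact two-sided permutation test gave p = 0.1, the smallest that 3 against 3 allows. Cox5b was the 1 member called under any alternative, with limma sample quality weights, which give MA 3 little weight (log2 fold change -0.36, adjusted p = 0.043), where 4.4% of all tested genes were called. It has a near-identical copy, Gm11273, between which reads could be split, so its level is uncertain. Its partner Cox5a, which also faces the matrix, had a log2 fold change of -0.11 (SE 0.093). Cox6c and Cox7c, small membrane subunits, had -0.12 and -0.086. Cox6a1 had exactly the same mean, 11.34, in both groups, with the values 11.27, 11.40 and 11.34 in Control and 11.34, 11.27 and 11.40 in MA. The deposited libraries share a near-common distribution, in which genes of the same rank have nearly the same value. Cox8a (10.80, 10.87 and 10.84 against 10.91, 10.80 and 10.96), Cox6b1 (9.20, 9.22 and 9.16 against 9.07, 9.17 and 9.19) and Cox7a2 (7.90, 7.94 and 7.79 against 7.79, 7.73 and 8.01), the common isoforms of their subunits, overlapped between the groups. Cox7a2l, a relative of Cox7a2, had 7.30, 7.30 and 7.28 against 7.22, 7.23 and 7.45, and Cox7b had a log2 fold change of -0.052.

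The largest difference of the 46 genes was that of Cox8b, the isoform of subunit VIII known from heart, skeletal muscle and brown fat, on chromosome 7 from 140898945 to 140900446. Its level was 2.83, 3.16 and 2.64 in Control and 3.14, 4.18 and 4.64 in MA. MA 2 and MA 3 lay well above Control, and MA 1 lay within the Control range, just under Control 2. The log2 fold change was 1.11 (SE 0.35, 95% interval 0.28 to 1.93, adjusted p = 0.35 from limma), and the exact permutation test gave p = 0.2. Over the 18 settings of the fit that were tried (the planned one, other offsets, filters, scalings and weights, and each library left out) it stayed between 0.78 and 1.53, with an unadjusted p under 0.05 in 18 and an adjusted p under 0.05 in 0. Without MA 3 it was 0.78 (adjusted p = 0.19 from limma). The choroid plexus markers were also higher in MA, with summed levels of 6.06, 7.45 and 8.72 in Control and 10.80, 11.17 and 12.31 in MA. Within the MA group, both their sum and Cox8b were lowest in MA 1 and highest in MA 3. The marker sum was above all Control libraries in MA 1, where Cox8b was not. Control 3 had the highest sum of the Control libraries and the lowest Cox8b. The part of these markers in the Cox8b difference was not tested. Muscle markers did not separate the groups (summed levels 2.46 to 3.09 in Control and 2.34 to 3.26 in MA, for 5 of 6 genes present in the table). As a share of the summed Cox8a and Cox8b levels on the linear scale, Cox8b was 0.351% ± 0.069 in Control and 0.846% ± 0.401 in MA (SD, n = 3 each), so Cox8a remained the prevailing isoform in all 6 libraries.

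The groups overlapped for each of the other 5 low isoforms. Cox6b2, a testis isoform of subunit VIb, had levels of 3.37, 4.06 and 3.57 in Control and 3.92, 3.83 and 4.61 in MA, with MA 3 the highest and the other libraries overlapping. Its log2 fold change was 0.45 (SE 0.25, adjusted p = 0.59 from limma). This was 0.21 without MA 3, 0.16 with sample quality weights and 0.65 without Control 2, and its share of Cox6b was 2.001% ± 0.52 in Control and 2.89% ± 0.85 in MA (SD, n = 3 each). Cox7b2 had 0.62, 1.35 and 3.23 against 2.95, 0.95 and 3.37. With low and high libraries in both groups, its log2 fold change of 0.69 had a 95% interval from -1.17 to 2.56. Cox4i2, the isoform of subunit IV known from lung and low oxygen, had 2.26, 2.07 and 2.02 against 2.17, 1.71 and 2.80. MA libraries were both the lowest and the highest. Cox6a2 and Cox7a1 are isoforms known from heart and skeletal muscle. Cox6a2 had 2.61, 3.63 and 3.27 against 3.48, 3.23 and 2.91, and made up 0.320% of Cox6a in Control and 0.324% in MA. Cox7a1 had 3.55, 4.05 and 3.87 against 3.50, 3.83 and 4.22. It made up 3.29% and 3.39% of the summed Cox7a2, Cox7a1 and Cox7a2l levels, of which Cox7a2l was 38.65% in Control and 39.25% in MA. For both Cox6a2 and Cox7a1, the mean difference (0.037 and 0.022) was far inside the range of either group. The median within-group SD of the 6 low isoforms was 0.41 (range 0.31 to 1.32), against 0.098 (0.038 to 0.38) for the 38 other subunits and 0.15 for all tested genes.

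**Figure D3:**
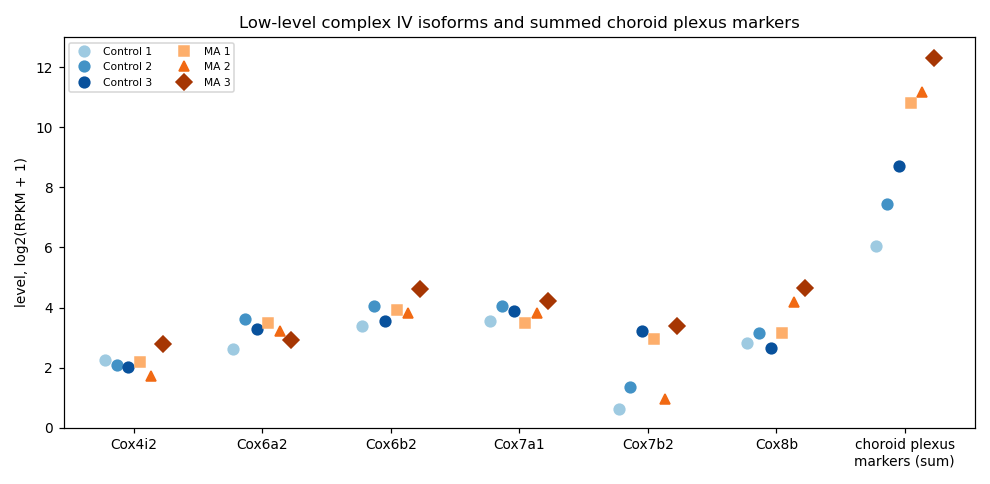
Level of the 6 low complex IV isoforms and the summed level of 7 choroid plexus markers in each library, as log2(RPKM + 1). Cox8b is high in MA 2 and MA 3, the other isoforms have overlapping groups, and the choroid plexus sum is between 10.80 and 12.31 in all 3 MA libraries and between 6.06 and 8.72 in all 3 Control libraries.

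ATP synthase had 9 genes higher and 8 lower in MA by point estimate. Atp5k (subunit e) and Atp5l (subunit g) are small membrane subunits by which the enzyme forms dimers. Atp5k, on chromosome 5 from 108433244 to 108434448, had levels of 10.17, 10.29 and 9.96 in Control and 9.95, 9.91 and 9.79 in MA. All MA libraries were below all Control libraries, with MA 1 only just below Control 3. The log2 fold change was -0.26 (SE 0.10, 95% interval -0.49 to -0.026, adjusted p = 0.44 from limma), and the exact permutation p was 0.1. It kept an unadjusted p under 0.05 in 12 of the 18 settings, was -0.21 (adjusted p = 0.24 from limma) without MA 3, and has 1 near-identical copy in the genome. Unlike most members, Atp5k was at its lowest in MA 3. Atp5l had 9.28, 9.27 and 9.23 against 9.11, 9.09 and 9.23, a log2 fold change of -0.12 (SE 0.072), where MA 3 equalled the lowest Control library. It has 9 near-identical copies, the most of the 46 genes, so its level is uncertain.

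The catalytic head of ATP synthase is built of the alpha (Atp5a1) and beta (Atp5b) subunits around a central stalk. Atp5b had levels of 10.77, 10.80 and 11.03 in Control and 11.51, 11.21 and 10.62 in MA. MA 1 and MA 2 lay above all Control libraries and MA 3 lay below them all, so that MA 3 was the lowest library, as for Sdha. Its log2 fold change was 0.25 (SE 0.21, adjusted p = 0.75 from limma). It was 0.49 (limma adjusted p = 0.081) without MA 3 and 0.045 without MA 1. Atp5a1 had 8.30, 8.26 and 8.37 against 8.42, 8.43 and 8.19, again with MA 3 the lowest. The stalk subunits had log2 fold changes of -0.0049 for Atp5c1 (gamma), -0.0058 for Atp5d (delta) and -0.057 for Atp5e (epsilon). Those of the peripheral stalk were -0.015 for Atp5f1 (subunit b), -0.038 for Atp5h (subunit d), 0.045 for Atp5j (coupling factor 6) and 0.0087 for Atp5o (the subunit that confers oligomycin sensitivity), and Atp5j2 (subunit f) had -0.071. The 3 genes of the c ring encode the same mature protein with different import signals. Their proportions differed between the groups by less than the SD within the MA group. For Atp5g1 and Atp5g3 the difference was larger than the SD within Control. Of the summed linear level of the 3 genes, Atp5g1 made up 33.2% ± 0.7 in Control and 33.9% ± 1.5 in MA, Atp5g2 20.2% ± 0.8 and 20.1% ± 1.6, and Atp5g3 46.7% ± 0.6 and 45.95% ± 1.2 (SD, n = 3 each). Atp5g1 had levels of 8.63, 8.68 and 8.60 in Control and 8.60, 8.67 and 8.88 in MA, Atp5g2 had 7.88, 7.90 and 7.97 against 8.03, 7.86 and 8.0005, and Atp5g3 had 9.08, 9.18 and 9.12 against 9.08, 9.16 and 9.22. The groups overlapped for all 3, with log2 fold changes of 0.081, 0.047 and 0.027. Of the genes that only share the symbol, Atp5s, the least abundant at a level of 3.33, had 3.23, 3.44 and 3.26 against 3.29, 3.11 and 3.63, and Atp5sl, listed as Dmac2 in GENCODE, had a log2 fold change of 0.053. Without both, the median of all members was -0.0024.

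The members also differed between libraries of the MA group. The median deviation of the 46 genes from their Control mean was -0.046 in MA 1 and -0.065 in MA 2 but 0.069 in MA 3, and -0.023, 0.037 and -0.031 in the Control libraries. MA 3 was above all Control libraries for 25 of the 46 genes and below them for 7, whereas the counts were 7 and 21 for MA 1 and 7 and 22 for MA 2. In percent of the members, 54.4 were above and 15.2 below in MA 3 (against 32.03 and 38.33 of tested genes), 15.2 and 45.6 in MA 1 (against 32.45 and 34.07) and 15.2 and 47.8 in MA 2 (against 30.37 and 32.43). Control 2 was the highest Control library for 25 members (54.35%, against 29.31% of tested genes). For 17 members (37.0%) MA 1 and MA 2 lay below the Control mean and MA 3 above it, against 17.25% of tested genes, and for 5 (10.9%), Sdha and Atp5b among them, the order was the opposite, against 18.95%. Other genes of abundant protein complexes showed the same order. In MA 1, 2 and 3 the median deviation was -0.12, -0.12 and 0.093 for the 38 complex I subunits, -0.090, -0.084 and 0.13 for the 77 mitochondrial ribosomal proteins, and -0.095, -0.16 and 0.078 for the 82 cytosolic ribosomal proteins. Over all tested genes it was -0.0061, -0.0078 and -0.020. The thalamus markers also set MA 3 apart from MA 1 and MA 2, but in the opposite direction to the member medians. Their summed levels were 5.80 and 6.25 in MA 1 and MA 2 and 4.35 in MA 3, against 4.37 to 4.80 in Control. Their part in the order of the libraries was not tested.

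**Figure D4:**
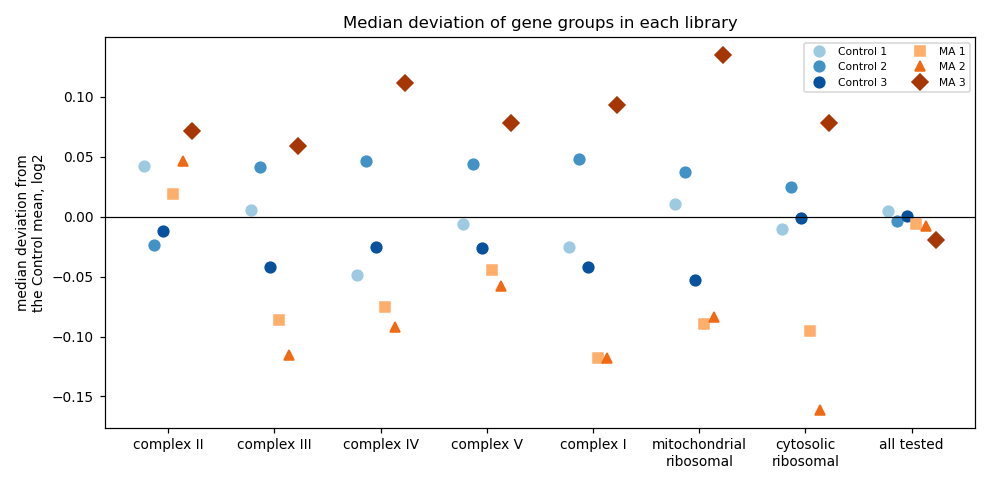
Median deviation from the Control mean (log2) of the genes of each complex, of 3 other gene groups and of all 13321 tested genes, in each library. MA 3 (dark diamonds) is the highest library in each of the 7 gene groups, MA 1 and MA 2 are the lowest in all but complex II, and all tested genes together lie near 0.

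Of the libraries left out, MA 3 moved the counts most, over the members and over all tested genes alike. Without it, 9 members had an unadjusted p under 0.05 (limma). Of these, 3 were higher in MA, Atp5b, Cox8b and Sdha (6.52% of members, against 11.9% of tested genes). Of the 46 members, 6 were lower, Atp5l, Cox5a, Cox5b, Cox6c, Uqcrh and Uqcrq, a larger share than the 11.4% of tested genes. The smallest adjusted p was 0.078 and 0 members were called. The 2 remaining MA libraries were above the 3 Control libraries for 3 members (6.52%, against 20.8% of tested genes) and below them for 14 (30.4%, against 22.1%). With 5 libraries the median was -0.068 over the members, -0.088 for complexes III and IV and -0.050 for complex V, and it stayed positive, at 0.033, for complex II. With sample quality weights, 2 of the 46 members were higher at an unadjusted p under 0.05 (limma), Atp5b and Cox8b, a smaller share than the 12.9% of tested genes. At the same threshold 8 were lower, Atp5j2, Atp5k, Atp5l, Cox5a, Cox5b, Cox6c, Uqcrh and Uqcrq, a larger share than the 13.4% of tested genes. What sets MA 3 apart was not tested.

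Sdha and Atp5b, which went against most other members in each MA library, are among the longest of the set. The median coding length of the members was 394.5 bases, against 1410 for tested genes. Across the 46 genes, the deviation from the Control mean correlated with log coding length at r = 0.31 in MA 1, 0.22 in MA 2 and -0.28 in MA 3, and at 0.19, -0.38 and 0.054 in Control 1, 2 and 3. Over 13052 tested genes the same coefficients were 0.084, 0.12 and -0.12, and 0.038, -0.11 and 0.052. These are descriptions across genes of the same library, which share its RNA and depth. For the 30 members with under 500 coding bases the median deviation was -0.091 in MA 1, -0.098 in MA 2 and 0.082 in MA 3, whereas for the 16 longer ones it was 0.010, 0.024 and 0.057. Of the 30 shorter genes, 12 were below the Control mean in both MA 1 and MA 2 and above it in MA 3, as were 5 of the 16 longer ones. After a correction of each library for coding length, chosen after seeing the data, Cox8b (1.15, limma adjusted p = 0.27) and Cox5b (-0.22, limma adjusted p = 0.32) had an unadjusted p under 0.05, Atp5k (-0.22) did not, and 0 members were called. The part of transcript length in the order of the MA libraries was not tested.

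**Figure D5:**
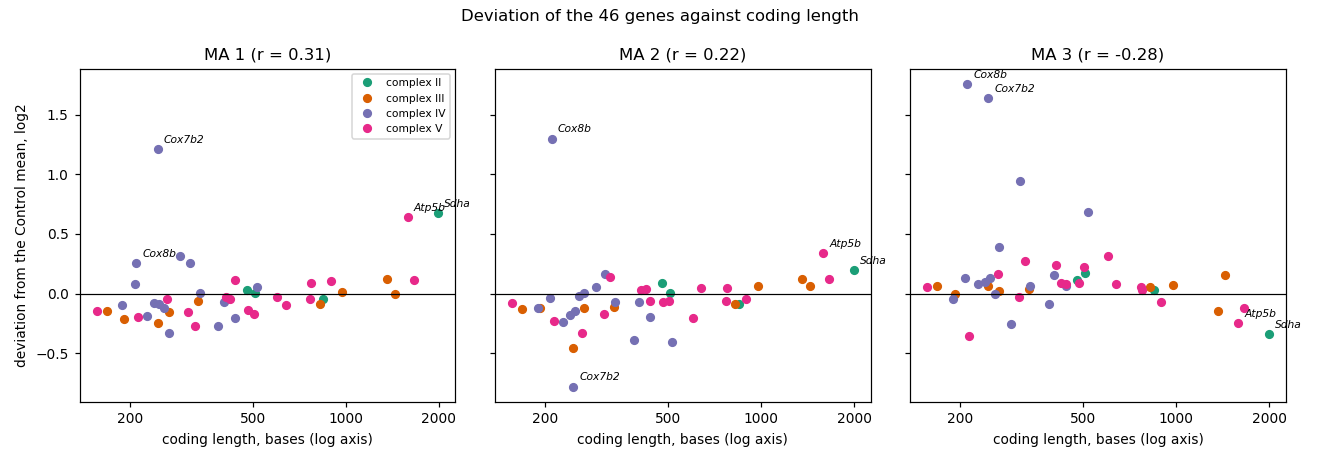
Deviation of each of the 46 genes from its Control mean (log2) against coding length in bases (log axis), in a panel for each MA library, with colours for the complexes. The long genes Sdha and Atp5b are above 0 in MA 1 and MA 2 and below 0 in MA 3, while of the 30 genes under 500 bases 22 are below 0 in MA 1, 22 in MA 2 and 7 in MA 3, and r is 0.31, 0.22 and -0.28.

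Other genes of the pathway gave no call either. Of 37 assembly factors tested, 2 were higher and 1 lower in MA at an unadjusted p under 0.05 (limma), with a median log2 fold change of -0.0003. Coa4, a complex IV assembly factor, had levels of 2.08, 2.05 and 1.80 against 2.24, 2.23 and 2.49, and Uqcc1, which helps build complex III, had 5.15, 5.01 and 5.32 against 4.96, 4.87 and 4.87. In both the groups were separate, as for 8.11% of the list with MA higher and 5.41% with MA lower. Over all tested genes these shares were 7.32% and 10.2%. Atpaf2, which assembles the head of ATP synthase, was at 3.52, 3.43 and 3.86 against 4.25, 4.46 and 3.65, with MA 3 back among the Control libraries. Of 11 genes for electron carriers and metabolite exchange 0 reached that threshold. The smallest p belonged to Etfa, an electron transfer flavoprotein subunit (0.16), Ckmt1, mitochondrial creatine kinase (-0.18), and Cycs, cytochrome c (-0.11, with 6.42, 6.44 and 6.47 against 6.36, 6.23 and 6.41), given as log2 fold changes. Among 16 transcriptional regulators of respiratory genes, 2 were lower (12.5%, against 5.46% of tested genes) and 0 higher (against 4.99%). Gabpa, the DNA-binding part of nuclear respiratory factor GABP, had 2.82, 2.65 and 2.78 against 2.46, 2.47 and 2.28 (log2 fold change -0.34, limma adjusted p = 0.33), and Creb1 had 2.78, 2.69 and 2.99 against 2.58, 2.29 and 2.26 (-0.44, limma adjusted p = 0.32). Each MA library was below each Control library for both genes, MA 3 included (12.5% of the list, against 10.2% of tested genes). Gabpa overlaps the more abundant Atp5j (level 8.87) on the opposite strand. Tfb2m, a mitochondrial transcription factor, came next at -0.15.

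Of the 38 complex I subunits, 1 was higher and 3 were lower at an unadjusted p under 0.05 (limma). These were 2.63% and 7.9% of the list, against 4.99% and 5.46% of tested genes, and the median was -0.040. The lower genes were Ndufb8 (-0.25), Ndufa5 (-0.23) and Ndufa3 (-0.26), and the higher one was Ndufc2 (0.25), all of them accessory subunits. Among 77 mitochondrial ribosomal proteins, 1 was higher (Mrps5, 0.41) and 1 lower (Mrpl42, -0.25), or 1.30% in each direction, with Mrps10 next (0.28). Of 82 cytosolic ribosomal proteins, 2 (2.44%) were lower (Rps29, -0.38, and Rps28, -0.19), with Rpl30 next (-0.17), and the median was -0.054. None of these lists held a gene called at an adjusted p under 0.05 (limma), and whether they differ from complexes II to V was not tested.

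The identity of a few members limits their values. A near-identical copy elsewhere in the genome (at least 95% identity over at least 200 bases) was found for 14 of the 46 genes, among them Atp5l (9 copies), Atp5h (4), Uqcrb (3) and Cox6c, Cox7b and Atp5g2 (2 each), and 13 overlap a gene on the opposite strand, such as Atp5j with Gabpa, Cox6c with Vps13b and Cox6a2 with Itgad. The overlap is that of whole genes, and overlap of their exons was not checked. Whether the counting used strand is not given in the sources used here, so reads from any shared exons may not be told apart. Cox8b had neither a copy nor an overlapping gene.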

How the data were processed

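The study's methods describe poly-A RNA-seq with paired-end reads, alignment with Hisat2, counting with featureCounts and conversion to FPKM, whereas the processing notes of the submitters list Bowtie 0.12.2 and the builds mm8 and mm9. The kits named also differ between these sources. The authors deposited 1 table of log2 values, read as log2(RPKM + 1) from their range, with a near-common distribution in the 6 libraries. How these were made is not given in the sources used here. Depth is unknown.

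The tests covered genes that reached 0.5 after back-transformation in 3 or more of the 6 libraries (13321 of 16060 rows) with limma 3.58.1 in R 4.3.3 (lmFit, eBayes with trend, two-sided, no covariate, Benjamini-Hochberg adjustment over all tested genes). limma took the place of the count test in the study's methods because the values are not counts. Groups and replicate numbers came from the sample titles. The members, lists and alternatives were chosen with earlier results of these data known. All 46 members are accounted for. Those described per library were, in each complex, the 3 smallest limma p, the highest and the lowest level, the Sdh genes and isoforms of a subunit, and, from other lists, the 3 smallest p. Shares of isoforms used back-transformed values. Locations and coding lengths come from GENCODE M21 (GRCm38), copies from BLAST 2.17.0, promoters from RefSeq, and all 46 identifiers matched GENCODE. The scripts were tested on simulated data. Alternatives were offsets of 0.1 and 0.01, no filter, a minimum mean of 5, median centring, quantile normalization, no trend, sample quality weights, a replicate block, leaving out each library or the genes that are not subunits, and a length correction. Protein, histological and quercetin experiments were not analysed here.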

Additional observations from a re-analysis of the deposited data

How the results depend on the processing

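No member passed an adjusted p under 0.05 (limma) in 17 of the 18 settings. The exception was limma's sample quality weights, with 1 call (Cox5b) and 10 members at an unadjusted p under 0.05, where 3 were found with the design as planned. Without the eBayes trend that count was 1, and with a library left out in turn it was 1 to 9. Members whose groups did not overlap numbered 2, and 3 to 17 with a library left out, where the share of all tested genes rose as well (23.6% to 42.9%). The complex II median of 0.069 ranged from 0.028 to 0.080 with a library left out. Without MA 3 the median went from -0.046 to -0.088 for complex III, from 0.0027 to -0.088 for IV and from 0.0087 to -0.050 for V. With sample quality weights these 3 medians were -0.095, -0.106 and -0.0060. The SD of the library medians within the MA group, MA 3 included, was 0.093, 0.113 and 0.075 in the same order. Of 29 members described per library or by test, 0 changed the sign of the log2 fold change under the offsets and scalings. The scalings acted on libraries that already shared a near-common distribution. Under the filters, no trend and the replicate block it was also 0, by construction, since these leave the log2 fold change of a gene as it is. The sign changed for 7 with sample quality weights, 2 to 5 with a library left out and 2 with the length correction. None of them had an unadjusted p under 0.05 in either fit. Same-numbered libraries did not deviate together (r = -0.197, -0.242 and -0.337 across genes), and nothing in the labels pairs them. With the replicate block 0 members were called, 2 had an unadjusted p under 0.05 (Cox8b and Atp5k), the non-overlap count was unchanged by construction and the smallest adjusted p was 0.597. The depth is unknown, and the precision for each gene is that of its interval, which is widest for most of the low isoforms. The causes of these changes were not tested.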
